A study of Mus musculus with 5 samples.

Results

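Muscle progenitors of the embryonic limb in single-cell RNA-seq of mouse forelimb and hindlimb were chosen by their measured transcripts of *Pax7* together with *Myf5*, *Msc* or *Fgfr4*. A kept limb cell was taken as a Pax7 progenitor when it held at least 1 UMI (unique molecular identifier, 1 counted RNA molecule) of *Pax7*, at least 1 UMI of *Myf5*, *Msc* or *Fgfr4*, and no UMI of *Myog*. These limits chose 1255 of 42562 kept limb cells, or 2.95% (95% exact binomial interval 2.79 to 3.11), and the whole series held 62143 kept cells. The forelimb library gave 677 progenitors among 22057 kept cells and the hindlimb library 578 among 20505. The study made 1 library of forelimb, 1 of hindlimb and 3 of penis, stages at which the bones of the limb and the baculum begin to ossify. The labels give every library the genotype C57BL/6N, where the study's methods name C57BL/6J. The limbs were taken at embryonic day 15 by the sample titles and the penis at postnatal day 6, and the labels name no transgene or treatment. The study's methods name male embryos as the source of forelimbs and hindlimbs alike. Neither they nor the labels say which embryos went into which limb library, so the libraries may share embryos and each is 1 sample. All p-values below therefore hold for these 2 libraries only and not for other animals. Their error is estimated in part over all genes together, so a small p-value does not show how well a gene's change repeats between libraries.

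Skeletal muscle of the limb grows from cells that leave the somites, enter the limb bud and keep dividing while others of their kind fuse into fibres. *Pax7* encodes a paired-box transcription factor of the dividing pool, which also gives rise to the satellite cells of adult muscle. *Myf5* and *Myod1* encode transcription factors that commit cells to muscle, *Myog* encodes the factor of cells that leave the pool and differentiate, *Msc* encodes a basic helix-loop-helix repressor known as musculin, and *Fgfr4* encodes a fibroblast growth factor receptor of embryonic muscle. Notch signalling, passed from a ligand on one cell to a receptor on its neighbour, is known to keep such progenitors from differentiating, and *Hey1* and *Heyl* are among its target genes.

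The kept cells held 142718533 UMIs in the forelimb library and 148078685 in the hindlimb library, and the progenitors held 6641229 and 6688757 of them. The median depth was 9013 UMIs per progenitor in the forelimb and 10371.5 in the hindlimb, against 5263.5 and 5952 in all other limb cells, and the part of this gap in what follows was not tested unless a value at equal depth is given. A cell with more UMIs passes limits of 1 UMI more easily. The limb libraries shared 203 barcodes, but no barcode was a progenitor in both. A doublet caller, scrublet, marked 7.09% of forelimb and 6.57% of hindlimb progenitors, against 2.78% and 2.57% of all kept cells. Of the penis libraries, 2 held 1 cell each that met the same gene limits and the third held none, so the set is described in the limbs.

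*Pax7* (GRCm38, chromosome 4, 139737062 to 139833528, minus strand) was present at low counts in each cell. A single *Pax7* UMI was found in 45.6% of forelimb and 37.2% of hindlimb progenitors, 2 UMIs in 27.5% and 27.2%, and 3 or more in 26.9% and 35.6%, up to 10 and 11 UMIs in 1 cell. *Msc* was detected in 84.2% and 84.9% of progenitors, *Fgfr4* in 73.9% and 76.0%, and *Myf5* in 52.0% and 59.3%, and 33.1% and 39.6% held all of these. These genes chose the cells, so their values are a description. Summed over the progenitors, *Pax7* stood at 210 CPM (the count scaled to a sum of 1000000 UMIs) in forelimb and 208 in hindlimb sums, and at 3.15 and 2.84 CPM in the other limb cells. Just outside the limits lay 139 cells with *Pax7* but none of *Myf5*, *Msc* and *Fgfr4*, 326 cells that met the limits except for a *Myog* UMI, and 353 cells with 2 of *Myf5*, *Msc* and *Fgfr4* but no *Pax7* UMI. In cells with both *Pecam1* and *Cdh5*, which mark blood vessel lining and should lack the gene, *Pax7* was seen in 0.425% of forelimb and 0.756% of hindlimb cells, at medians of 6851 and 9298 UMIs.

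The progenitors were first compared with all other kept limb cells, by summing UMIs per library over each set and testing the sums with edgeR's quasi-likelihood test with the library as a block. A gene was called at an adjusted p under 0.01 and an absolute log2 fold change above 1. The 5 genes of the limits were left out. Of 21198 genes tested, 3704 were called, or 17.5% of them, with 932 (4.4%) higher and 2772 (13.1%) lower in progenitors, and the median log2 fold change over all tested genes was -0.16. The fit scales the sums by TMM, while the CPM printed beside its fold changes use library totals alone. In this comparison its fold changes lie above the ratios of the CPM. With library totals in the fit, an alternative chosen after seeing the data, 503 genes were called higher and 3777 lower, and the median was -0.42.

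Most listed muscle progenitor genes that had not been used to choose the cells were higher in them than in all other limb cells. Of 12 check markers, 9 were called higher and none lower, with a median log2 fold change of 2.30. *Lbx1*, which encodes a homeodomain factor of muscle precursors that migrate into the limb, stood at 31.8 CPM in forelimb and 35.7 in hindlimb progenitors, and at 2.47 and 1.75 CPM in other limb cells (log2 fold change 4.27 ± 0.18 SE, n = 2 libraries, adjusted p = 8.35e-08, edgeR). *Eya1*, which encodes a transcriptional coactivator of muscle precursors, stood at 65.3 and 59.2 CPM against 7.85 and 8.56 (log2 fold change 3.18 ± 0.09, adjusted p = 1.74e-08, edgeR). *Cdh15*, which encodes M-cadherin, an adhesion molecule of muscle precursors, stood at 88.4 and 80.0 CPM against 16.7 and 11.8 (log2 fold change 2.84 ± 0.10). In none of these genes did the 2 sets overlap between libraries. How many of all tested genes shared this was not counted, so it does not set these genes apart. *Met*, the receptor of hepatocyte growth factor, *Itga7*, *Des* and *Myod1* were also called higher, with log2 fold changes from 1.72 to 2.48. *Pax3*, the paralogue of *Pax7* that marks earlier precursors, stood at 5.12 CPM in forelimb and 2.39 in hindlimb progenitors and was not called against other cells at 3.68 and 2.69 CPM. *Vcam1* and *Chrdl2* were not called either. Against the Myog cells described below, 4 of the 12 were called higher (*Heyl*, *Eya1*, *Met* and *Vcam1*) and 4 lower (*Cdh15*, *Myod1*, *Chrdl2* and *Des*). The list summed to 618 CPM in forelimb and 613 in hindlimb progenitors, and to 826 and 822 CPM in Myog cells.

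**Figure D1:**
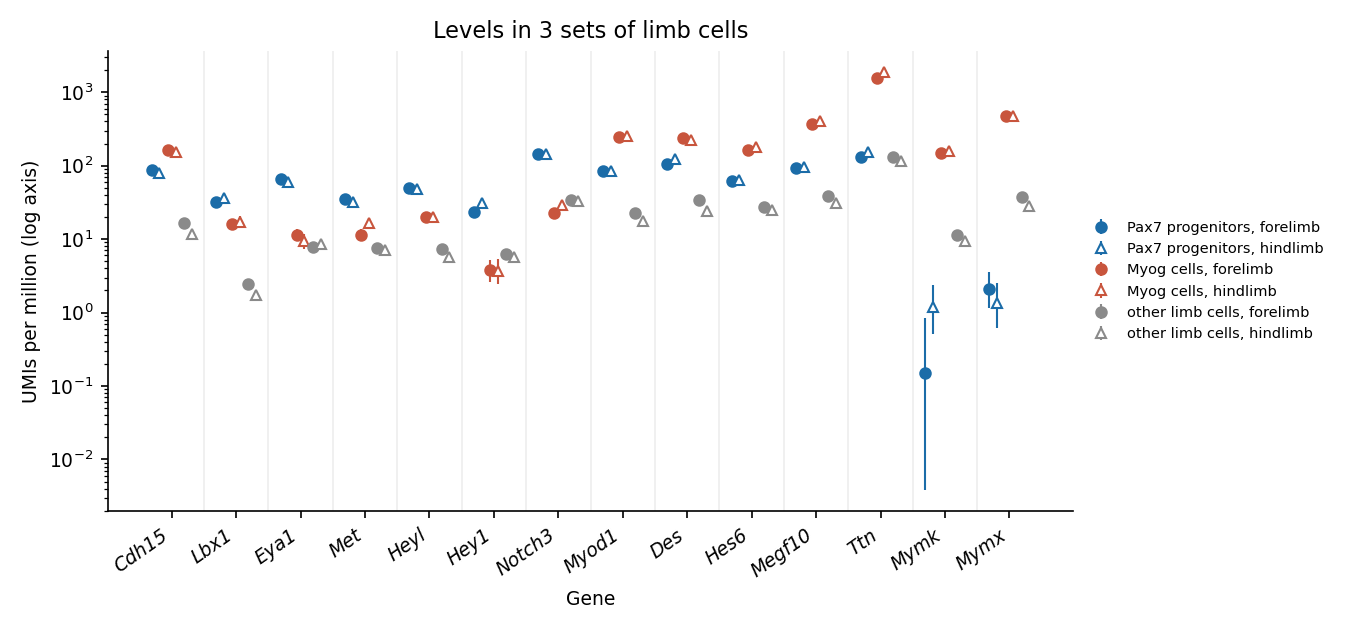
Levels of 14 genes in CPM (vertical log axis) in Pax7 progenitors (blue), Myog cells (red) and other limb cells (grey), with a filled circle for the forelimb library and an open triangle for the hindlimb library and bars for the 95% Poisson counting interval. *Lbx1*, *Eya1*, *Heyl*, *Hey1* and *Notch3* are highest in progenitors, while *Mymk* and *Mymx* stand at no more than 2.11 CPM there, below the other limb cells, a direction that turned when cells with muscle genes were left out of the other cells.

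Of 22 myogenic transcription factors, 14 were called higher and 3 lower, with a median log2 fold change of 1.51. Of all tested genes 4.4% were called higher and 13.1% lower, so the share called lower was near that of all genes. *Pitx3*, a homeodomain factor gene, stood at 26.4 and 32.3 CPM against 4.07 and 3.06 (log2 fold change 3.30 ± 0.18, adjusted p = 3.68e-07, edgeR). *Myf6*, *Eya4*, *Eya2*, *Tbx1*, *Sox8* and *Six4* were called higher as well, as were *Id1* and *Id3*, whose products block basic helix-loop-helix factors such as MyoD and whose calls were lost with library totals in place of TMM. *Meox2*, *Meox1* and *Mef2c* were called lower. *Mef2c*, which encodes a partner of the myogenic factors in differentiation, stood at 24.4 and 21.5 CPM in progenitors and at 135 and 151 CPM in other limb cells.

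Among 22 Notch pathway genes, 6 were called higher and 2 lower, where 4.4% of all tested genes were called higher and 13.1% lower. The receptor *Notch3* stood at 146 CPM in forelimb and 144 in hindlimb progenitors, against 34.6 and 33.5 in other cells (log2 fold change 2.34 ± 0.07, adjusted p = 1.34e-08, edgeR). The target genes *Heyl* (log2 fold change 3.17 ± 0.11) and *Hey1* (2.45 ± 0.16) and *Lfng* (3.01 ± 0.14), which encodes an enzyme that modifies Notch receptors, were called higher. *Hes1*, another target gene, was not called, with levels of 204 and 198 CPM in progenitors and 197 and 169 CPM in other cells. The ligand *Dll4* and the coactivator *Maml2* were called lower, and *Notch1*, *Notch2* and *Jag1* were not called. The call of *Dll4* was lost with DESeq2 and without the cells that held a *Mki67* or *Top2a* UMI.

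Of 17 FGF and HGF signalling genes, *Met* and *Etv1* were called higher and *Fgfr3*, *Cxcl12* and *Ackr3* lower, and of 25 adhesion and basement membrane genes, 7 were called higher and 5 lower, where 4.4% of all tested genes were called higher and 13.1% lower. The shares called lower were thus near that of all genes. *Lama5* and *Lama2*, which encode laminin chains, had log2 fold changes of 2.92 ± 0.11 and 1.81 ± 0.09, and *Col4a1* and *Col4a2*, which encode basement membrane collagen, of 1.43 ± 0.05 and 1.47 ± 0.06. *Dag1*, which encodes the laminin receptor dystroglycan, was called higher too. *Cdh11*, a cadherin of mesenchyme, was called lower at 77.8 and 91.3 CPM against 375 and 453.

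Of 20 genes known from quiescent satellite cells and their niche, 4 were called higher and 6 lower, with a median log2 fold change of -0.33. All tested genes had a median of -0.16, with 4.4% called higher and 13.1% lower. *Calcr*, the calcitonin receptor of adult satellite cells, stood at 8.28 CPM in forelimb and 5.23 in hindlimb progenitors, and at 1.30 and 1.20 CPM elsewhere (log2 fold change 2.68 ± 0.25, adjusted p = 1.31e-05, edgeR). It was detected in 5.02% and 4.67% of progenitors, and in 1.06% and 1.26% of the *Pecam1* and *Cdh5* cells. *Mstn*, which encodes the growth inhibitor myostatin, had a log2 fold change of 3.15 ± 0.14, and *Cdkn1c*, which encodes the cell cycle inhibitor p57, of 1.07 ± 0.03. The call of *Cdkn1c* was lost with library totals in place of TMM (log2 fold change 0.82), with at least 2 *Pax7* UMIs and without dividing cells, that is, cells with a *Mki67* or *Top2a* UMI. Among those called lower were *Cd34*, *Rgs5*, *Osmr*, *Foxo3* and *Cdkn1a*.

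Over all genes, the called ones with the highest log2 fold changes and at least 50 UMIs in the progenitors of each library included *Dbx1*, *Gm43824*, *Zic1*, *Gm32926*, *Gm9947*, *Lbx1*, *Ankrd1* and *Ankfn1*. *Gm9947* (chromosome 1, 14752937 to 14776931, plus strand) is annotated as antisense and spans *Msc* (14753346 to 14755992, minus strand), one of the genes that chose the cells, so it is not independent of that choice. *Dbx1*, a homeobox gene best known from interneurons of the spinal cord and hindbrain, stood at 27.4 CPM in forelimb and 25.6 in hindlimb progenitors, and at 0.816 and 0.424 CPM in other limb cells (log2 fold change 5.70 ± 0.24, adjusted p = 7.24e-08, edgeR). *Zic1*, which encodes a zinc finger transcription factor, stood at 27.9 and 34.98 CPM against 1.72 and 1.17 (log2 fold change 4.70 ± 0.22). The lowest by the same rule were *Il18r1*, *Gm11697*, *P2rx1*, *Pou3f3* and *Ctsg*, with no UMI in any progenitor. With DESeq2 *Gm11697*, *P2rx1*, *Pou3f3* and *Ctsg* lost their call, without the block *Pou3f3* and *Ctsg*, and without dividing cells *Il18r1*, *Gm11697*, *P2rx1* and *Ctsg*. Against the level that 3 UMIs over both sums would give, *Il18r1* was at least 20.1-fold lower and *Ctsg*, a protease gene of blood cell granules, at least 13.7-fold lower.

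Most markers of other cell types were called lower in progenitors, but those of red blood cells and mural cells were not all. All 10 mesenchyme, 8 chondrocyte and 8 immune markers were called lower, and 7 of 8 endothelial, 6 of 8 epithelial, 5 of 6 tendon and 6 of 9 muscle connective tissue markers, but only 1 of 8 red blood cell and 4 of 8 mural markers. Of all tested genes 13.1% were called lower, so the share of red blood cell markers was near that of all genes. The mesenchyme list summed to 2416 CPM in forelimb and 1896 in hindlimb progenitors, against 11423 and 10321 in other cells, and the red blood cell list to 5609 and 6512 against 9083 and 9314. The mural list summed higher in progenitors, to 336 and 315 CPM against 199 and 171, and the glial list to 46.4 and 61.4 against 67.7 and 59.9. In the hindlimb progenitors the mural marker *Kcnj8* was at 0. *Erbb3* from the glial list and *Notch3* and *Acta2* from the mural list were called higher, while the other 7 glial genes and *Rgs5*, *Kcnj8*, *Abcc9* and *Myh11* were called lower. Of 15 genes known to rise when tissue is dissociated, 8 were called lower in progenitors and none higher, among them *Ier3* at 48.5 and 38.3 CPM against 248 and 225. The part of these transcripts in the other differences was not tested.

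**Figure D2:**
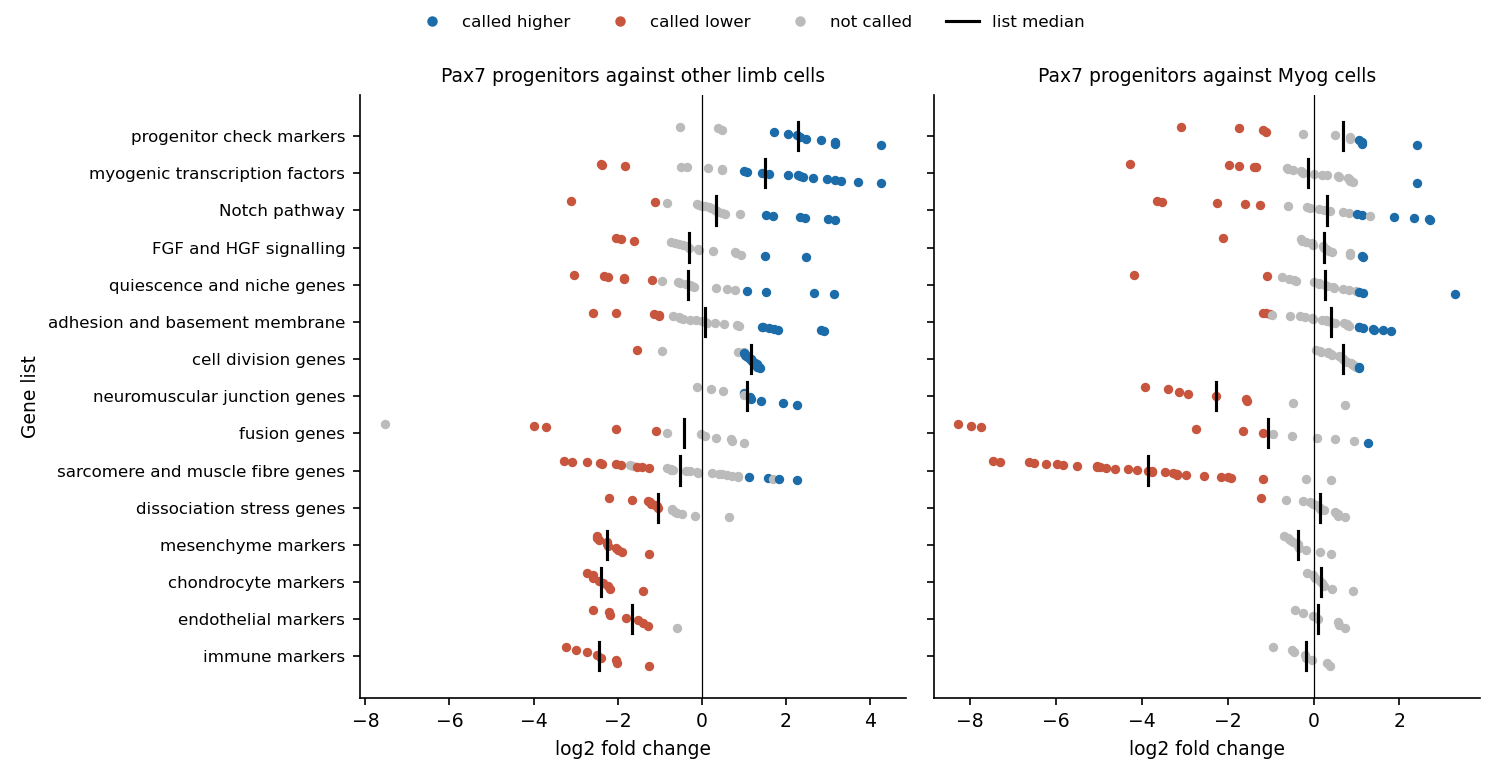
Log2 fold changes (horizontal axes) of the genes of 15 lists (rows), for Pax7 progenitors against other limb cells on the left and against Myog cells on the right, with blue for genes called higher, red for lower, grey for not called, and a black bar at the median of each list. On the right, 29 of 31 sarcomere genes and 7 of 9 neuromuscular junction genes are called lower, and no mesenchyme, chondrocyte, endothelial or immune marker is called, while some markers of the epithelial, glial, mural and red blood cell lists, which are not drawn, were.

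The progenitors were then set beside the limb cells that had begun to differentiate, taken as the 957 forelimb and 707 hindlimb cells with at least 2 *Myog* UMIs. Their medians of 8756 and 9957 UMIs were near those of the progenitors. Scrublet marked 9.61% of forelimb and 8.49% of hindlimb Myog cells, against 7.09% and 6.57% of progenitors. These cells are also among the other limb cells above, and both comparisons share the progenitor sums. Of 13975 genes tested, 1530 were called, or 10.9%, with 555 (3.97%) higher and 975 (6.98%) lower in progenitors, and DESeq2 called 933. The median log2 fold change over all tested genes was -0.01. With library totals in place of TMM, 843 genes were called higher and 781 lower, and the median was 0.17. Here the fitted fold changes thus lie below the ratios of the printed CPM.

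Genes of the contractile fibre were lower in progenitors than in Myog cells, as were some genes of cell fusion. Of 31 sarcomere and muscle fibre genes tested, 29 were called lower and none higher, with a median log2 fold change of -3.85. *Ttn*, which encodes titin, the spring of the sarcomere, stood at 133 CPM in forelimb and 155 in hindlimb progenitors, and at 1570 and 1873 CPM in Myog cells (log2 fold change -3.75 ± 0.05, adjusted p = 5.41e-13, edgeR). *Tpm1* and *Tpm3*, tropomyosins that are also used outside muscle, were not called. Against all other limb cells 4 sarcomere genes (*Tnnt1*, *Tpm1*, *Des* and *Ryr1*) had been called higher and 10 lower. Of 12 fusion genes, 6 were called lower, 1 higher and 5 in neither direction, where 3.97% of all genes tested were called higher and 6.98% lower. *Mymk*, which encodes myomaker, a membrane protein required for fusion, stood at 0.151 and 1.20 CPM in progenitors and at 149 and 159 CPM in Myog cells (log2 fold change -7.97 ± 0.20, adjusted p = 6.70e-11, edgeR). *Mymx*, which encodes its partner myomixer, stood at 2.11 and 1.35 CPM against 475 and 480 (log2 fold change -8.27 ± 0.12). *Kirrel*, a cell surface gene, was the fusion gene called higher. The 2 sets were chosen by opposite values of *Myog*, with no UMI in progenitors and at least 2 in Myog cells. The 326 cells that met the limits except for a *Myog* UMI are not among the progenitors. The part of this choice in the differences was not tested.

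Of 22 myogenic transcription factors, 5 were called lower than in Myog cells, 1 higher and 16 in neither direction. Among all genes tested against Myog cells 3.97% were called higher and 6.98% lower, so the share called higher was near that of all genes. *Myod1* stood at 84.0 and 83.6 CPM in progenitors and at 243 and 256 CPM in Myog cells (log2 fold change -1.75 ± 0.06), so it was above the other limb cells and below the Myog cells. *Mef2c* (log2 fold change -4.27 ± 0.13), *Mef2a*, *Mef2d* and *Sox8* were called lower in progenitors, and *Eya1* (2.41 ± 0.11) higher. *Lbx1*, *Six4*, *Eya4* and *Tcf12* were among those not called. *Cdkn1c* stood at 5710 and 4742 CPM in progenitors and at 10204 and 9372 CPM in Myog cells (log2 fold change -1.08 ± 0.05, and -0.91 and not called with library totals), between the Myog cells and the other limb cells at 3107 and 2811 CPM. *Cdkn1a*, which encodes the inhibitor p21, had a log2 fold change of -4.18 ± 0.13.

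Of 20 Notch pathway genes tested against Myog cells, 6 were called higher in progenitors, 5 lower and 9 in neither direction. The shares over all genes tested were 3.97% higher and 6.98% lower. *Notch3* (log2 fold change 2.33 ± 0.10), *Hey1* (2.69 ± 0.18), *Hey2*, *Heyl* (1.13 ± 0.10), *Lfng* and the ligand *Jag1* were called higher. *Hey2* and *Jag1* lost their call with DESeq2 and without the library block, and *Jag1* also among cells with at least 4000 UMIs, without the count filter and without dividing cells. The ligand *Dll1* stood at 4.37 and 2.84 CPM in progenitors and at 38.3 and 35.6 CPM in Myog cells (log2 fold change -3.53 ± 0.17, adjusted p = 1.37e-08, edgeR). *Dner*, another membrane protein able to bind Notch, stood at 7.98 and 11.2 CPM against 84.9 and 127. *Megf10*, *Hes6* and *Rbpj*, which encodes the DNA-binding protein of the pathway, were called lower as well.

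Of 25 adhesion and basement membrane genes, 7 were called higher than in Myog cells, 3 lower and 15 in neither direction, with a median log2 fold change of 0.41. Over all genes tested in this comparison 3.97% were called higher and 6.98% lower. *Col4a1* and *Col4a2* (log2 fold changes 1.62 ± 0.05 and 1.81 ± 0.06), *Lama4*, *Lamb1*, *Lamc1*, *Cdh2* and *Vcam1* were called higher in progenitors, and *Cdh15*, *Itga6* and *Ncam1* lower, *Ncam1* not with at least 2 *Pax7* UMIs and *Cdh15* and *Ncam1* not with library totals. Of 19 satellite cell genes tested, *Calcr*, *Sdc3* and *Spry1* were called higher, *Cdkn1c* and *Cdkn1a* lower and 14 in neither direction, and *Sdc3* lost its call with DESeq2. *Spry1* encodes an inhibitor of FGF signalling, and its relative *Spry4* was called lower. *Igfbp5*, which encodes a binding protein of insulin-like growth factors, stood at 428 and 464 CPM in progenitors against 95.6 and 103 in Myog cells. The highest log2 fold changes by the same rule were those of *Gm32926*, *Dbx1*, *Chrna7*, *Ntn4*, *Sh2d3c*, *Ptprq*, *F2rl1*, *Rcan2*, *Gm266* and *Itgb8*. *Chrna7*, a neuronal subunit of the acetylcholine receptor, stood at 18.4 and 16.7 CPM in progenitors and at 1.21 and 1.27 CPM in Myog cells (log2 fold change 3.64 ± 0.25, adjusted p = 4.01e-07, edgeR). *Gm31517*, *Hspb3* and *2310043L19Rik* stood beside *Mymx* and *Mymk* at the lower end.

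Against Myog cells, where 3.97% of all genes tested were called higher and 6.98% lower, most markers of other cell types were not called. Those called lower were *Krt10*, *Krtdap* and *Trp63* of 8 epithelial markers, *Foxd3* and *Erbb3* of 4 glial, *Abcc9* and *Acta2* of 6 mural and *Hbb-y* of 7 red blood cell markers tested, and *Cspg4* and *Notch3* of the mural list were called higher. *Krtdap* was lower in the hindlimb library alone, and its call was lost with DESeq2 and without the block. The epithelial list summed to 45.2 CPM in forelimb and 46.0 in hindlimb progenitors, and to 64.1 and 222 CPM in Myog cells, the mural list to 336 and 315 against 697 and 722, and the glial list to 46.4 and 61.4 against 91.5 and 103. The part of these transcripts in the other differences from Myog cells was not tested.

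Of 10 neuromuscular junction genes, 6 were called higher in progenitors than in all other limb cells, among them *Rapsn*, *Musk* and the acetylcholine receptor subunit *Chrnb1*, and 7 of 9 tested genes were called lower than in Myog cells. Over all genes tested, 4.4% were called higher than in other limb cells and 6.98% lower than in Myog cells. With library totals in place of TMM, only *Rapsn*, *Musk* and *Chrnb1* were called higher than in the other limb cells, and 7 were again called lower than in Myog cells. *Chrnb1*, *Chrnd*, *Chrng* and *Musk* were called both ways. *Chrna1*, the receptor's alpha subunit in muscle, was not called against the other limb cells and stood at 16.9 CPM in forelimb and 15.5 in hindlimb progenitors and at 222 and 218 CPM in Myog cells (log2 fold change -3.93 ± 0.08, adjusted p = 1.65e-11, edgeR). *Rapsn*, which encodes the protein that clusters these receptors, was not called between progenitors and Myog cells, at 36.3 and 34.7 CPM against 43.4 and 44.9.

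Promoters of the genes that were lower in progenitors than in Myog cells can be read for the E-box CAGCTG, a sequence that MyoD family proteins bind, which reads the same on both strands. *Chrna1* and *Des* are muscle genes called lower in progenitors than in Myog cells. They are shown as examples that hold the motif, which others of the genes called lower lacked. *Chrna1* was also called between progenitors with and without *Myod1*, a call that was lost with DESeq2 and without the library block. The 250 bases before the RefSeq start of each are given on the gene's own strand (GRCm38.p6), with CAGCTG in capitals, at chr2:73580339-73580588 on the minus strand for *Chrna1* and chr1:75360042-75360291 on the plus strand for *Des*.
Chrna1: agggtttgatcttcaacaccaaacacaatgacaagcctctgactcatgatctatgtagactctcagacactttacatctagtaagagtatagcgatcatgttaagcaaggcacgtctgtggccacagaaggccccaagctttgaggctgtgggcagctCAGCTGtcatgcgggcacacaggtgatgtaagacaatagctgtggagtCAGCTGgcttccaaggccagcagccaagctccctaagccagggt
Des: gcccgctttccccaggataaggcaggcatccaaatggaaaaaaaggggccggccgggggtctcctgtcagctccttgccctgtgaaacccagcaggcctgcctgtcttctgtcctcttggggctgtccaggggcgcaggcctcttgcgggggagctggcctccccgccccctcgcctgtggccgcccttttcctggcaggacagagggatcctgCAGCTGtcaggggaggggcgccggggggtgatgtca
The motif began 92 and 44 bases before the start of *Chrna1* and 36 bases before that of *Des*. Of the 36 sarcomere and junction genes called lower, 31 had a RefSeq window and 15 of these held CAGCTG in at least 1 window, where 14.7% of all 27025 genes with a window did. A match is a run of letters and not a measured binding site.

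Against other limb cells 4.4% of all tested genes were called higher and 13.1% lower. Of 22 cell division genes, 18 were called higher there and only *Ccnd2* lower, with a median log2 fold change of 1.16. Many lay near the fold limit, and with library totals in place of TMM the median was 0.91, 7 were called higher, among them *Mki67* but not *Top2a*, and *Ccnd2* and *Ccnd1* lower. *Mki67*, a marker of cycling cells, stood at 285 CPM in forelimb and 288 in hindlimb progenitors, and at 136 and 140 CPM in other cells (log2 fold change 1.31 ± 0.05, adjusted p = 7.39e-08, edgeR). Thinning every cell to 2000 UMIs evens the depth at which a gene is detected and leaves out shallower cells. The progenitors were still chosen at full depth, where a cell with more UMIs passes more easily. At 2000 UMIs *Mki67* was detected in 33.5% of 664 forelimb and 32.2% of 577 hindlimb progenitors, and in 13.5% of other cells in each library. The unthinned shares were 64.7% and 65.1% of progenitors and 22.9% and 23.9% of other cells. *Top2a*, which encodes the topoisomerase of dividing cells, was detected at 2000 UMIs in 39.5% and 40.0% of progenitors and in 18.3% and 17.5% of other cells. Both *Mki67* and *Top2a* were found in 52.4% of forelimb progenitors (95% exact binomial interval 48.6 to 56.3) and 54.5% of hindlimb progenitors (50.3 to 58.6), and in 26.5% and 25.6% of Myog cells, without thinning. Of the 326 cells that met the limits except for a *Myog* UMI, 71.3% in forelimb and 54.7% in hindlimb held both, at medians of 11398 and 11329 UMIs. High division was thus not particular to progenitors without *Myog*. Of the *Pecam1* and *Cdh5* cells 33.1% and 35.8% held both, and of all other limb cells 16.9% and 17.4%. Against Myog cells only *Mcm3* and *Mcm5*, which encode subunits of the replication helicase, were called higher among the division genes, and the list had a median log2 fold change of 0.68, and with library totals 7 were called higher. *Mki67* missed the fold limit there, with a log2 fold change of 0.87 ± 0.06. Of the cyclin D genes, *Ccnd3* was called higher than in other limb cells at 280 and 258 CPM against 159 and 149 (log2 fold change 1.06, and 0.81 and not called with library totals), *Ccnd2* lower at 92.8 and 117 CPM against 326 and 403, and *Ccnd1* was not called at 69.0 and 67.3 CPM against 152 and 160. With the dividing cells left out of both sets, that is without any cell that held a *Mki67* or *Top2a* UMI, 179 forelimb and 140 hindlimb progenitors were left and 2279 genes were called against other limb cells, 2000 of them shared with the 3704.

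**Figure D3:**
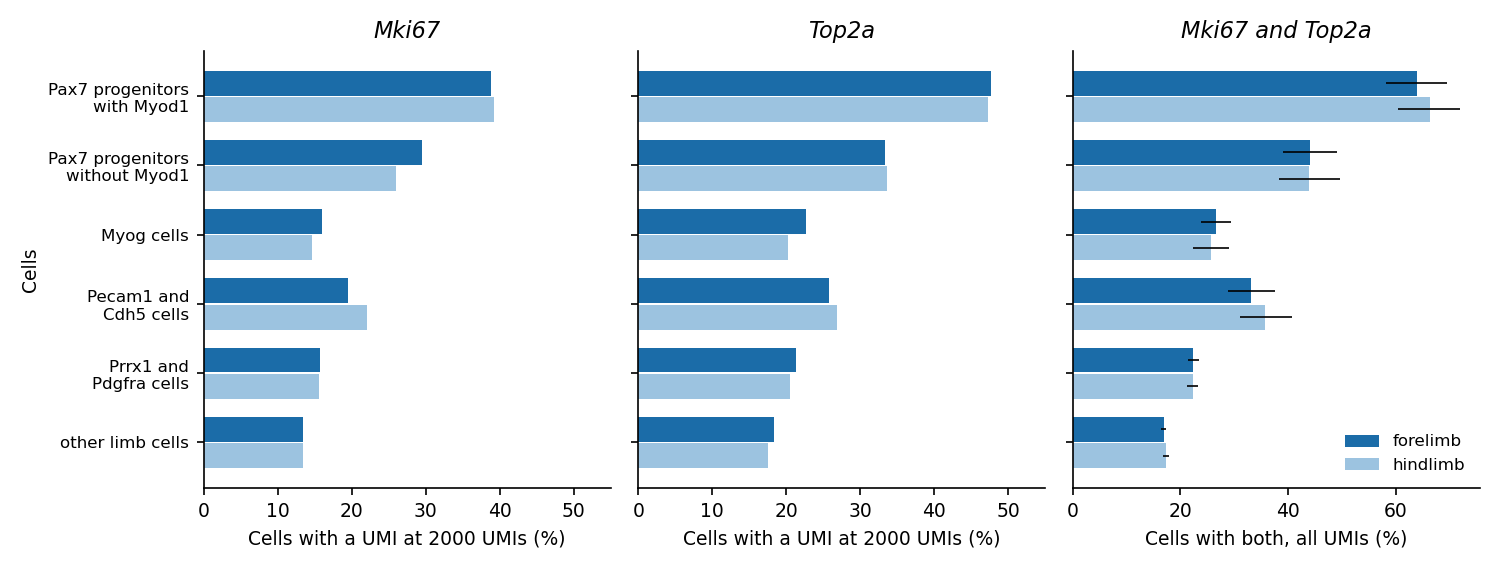
Share of cells with a *Mki67* or *Top2a* UMI after thinning every cell to 2000 UMIs (left and middle panels, percent) and with both genes at full depth (right panel, percent, with 95% exact binomial intervals), in 6 sets of limb cells (rows), dark blue for forelimb and light blue for hindlimb. Progenitors with a *Myod1* UMI lie highest in each panel, at 38.8% and 39.3% for *Mki67*, and all other limb cells lie lowest, at 13.5%.

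Progenitors were divided by whether a *Myod1* UMI was detected. Whether their *Myod1* levels differed beyond sampling was not tested. A *Myod1* UMI was found in 286 forelimb progenitors (42.2%) and 271 hindlimb progenitors (46.9%), against 2.12% and 2.02% of *Pecam1* and *Cdh5* cells. Progenitors with *Myod1* had medians of 10495 and 11678 UMIs and those without of 8072 and 9504, and the part of this gap in the split was not tested. At 2000 UMIs per cell *Myod1* was detected in 14.2% of progenitors in each library, in 38.4% and 39.3% of Myog cells and in 0.374% and 0.62% of *Pecam1* and *Cdh5* cells. At 2000 UMIs, *Mki67* was detected in 38.8% and 39.3% of progenitors with *Myod1* and in 29.6% and 26.0% of those without, and *Top2a* in 47.6% and 47.2% against 33.4% and 33.6%. For both genes the libraries did not overlap between these sets. How many other genes shared this was not counted, so it does not set *Mki67* and *Top2a* apart. Across all 22 division genes, none was called between the sets, and *Mki67* had a log2 fold change of 0.51 ± 0.07.

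Few genes were called between progenitors with and without *Myod1*. Of 11958 genes tested, 36 were called, or 0.301%, with 11 (0.092%) higher and 25 (0.209%) lower in cells with *Myod1*, and the median over all tested genes was -0.01. DESeq2 called 2, and edgeR without the library block called 0, with 770 genes at an unadjusted p under 0.05. Without the cells that held a *Mki67* or *Top2a* UMI, 9 genes were called, 1 of them shared with the 36, and with library totals in place of TMM 20 were, without *Chrnd*, *Reln* and *Asb5*. With at least 2 *Pax7* UMIs 32 genes were called, 19 of them shared with the 36, without *Actc1*, *Asb5* and *Dcc*. Without the cells marked by scrublet 33 were called, 21 of them shared. The higher genes with at least 50 UMIs in each library were *Gm28653*, *Chrna1*, *Mstn*, *Dync1i1*, *Dcc*, *Actc1*, *Gatm* and *Reln*. *Actc1*, the actin of embryonic muscle and heart, stood at 153 and 158 CPM with *Myod1* and at 71.3 and 69.8 CPM without (log2 fold change 1.14 ± 0.09, adjusted p = 1.38e-33, edgeR). *Chrna1*, whose promoter is printed above, stood at 24.5 and 21.7 CPM with *Myod1* and at 9.99 and 8.80 CPM without (log2 fold change 1.30 ± 0.23, adjusted p = 2.70e-06, edgeR). *Mstn* stood at 34.7 and 40.5 CPM against 15.1 and 17.9 (log2 fold change 1.19 ± 0.17). *Chrnd*, the delta subunit of the receptor, was also called higher, at 6.69 and 5.13 CPM against 2.28 and 0.943, but *Chrnd* and *Dcc* were not called without the cells marked by scrublet.

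At the lower end were *Esrrg*, *Asb5*, *Gadd45a*, *Arfgef3* and *Nppc*. *Esrrg*, which encodes an orphan nuclear receptor of oxidative metabolism, stood at 37.0 and 40.5 CPM with *Myod1* and at 87.9 and 119 CPM without (log2 fold change -1.41 ± 0.11, adjusted p = 4.24e-34, edgeR). *Gadd45a*, which encodes a stress-induced growth arrest protein, stood at 9.56 and 9.98 CPM against 20.5 and 24.2. Of 19 Notch pathway genes tested none was called, with *Heyl* at a log2 fold change of -0.12 ± 0.12 and *Notch3* at -0.23 ± 0.08. *Eya1* (-0.37 ± 0.11) and *Lbx1* (0.29 ± 0.15) were not called either. *Mymk* and *Mymx* were too low to be tested here.

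**Figure D4:**
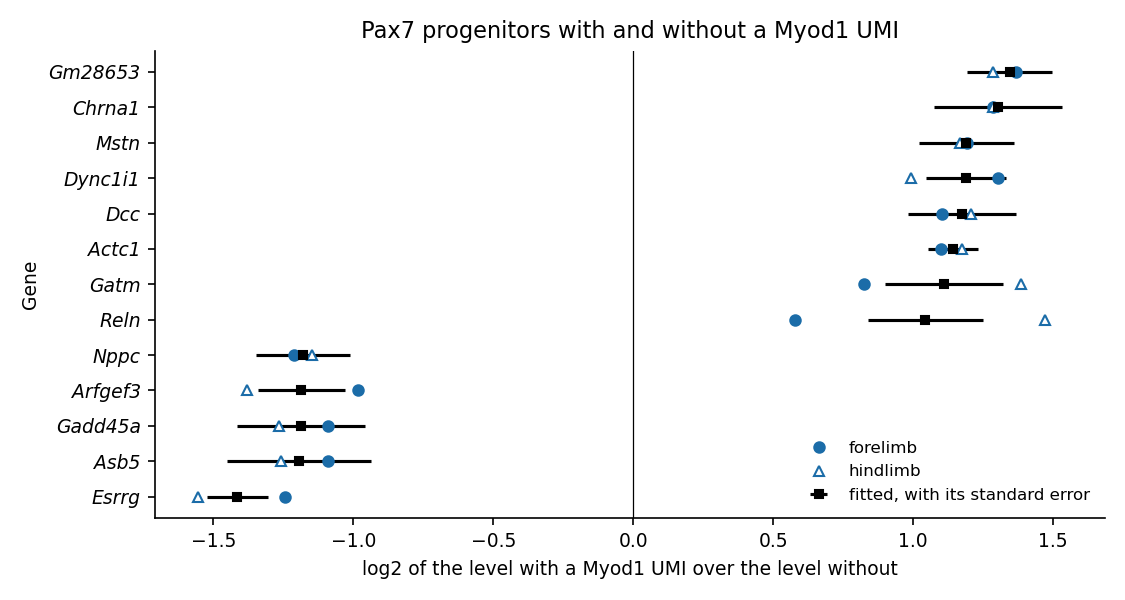
Log2 of the level in progenitors with a *Myod1* UMI over the level in those without (horizontal axis) for 13 genes (rows), with a filled circle for the forelimb library, an open triangle for the hindlimb library and a black square for the edgeR value with its standard error. The naming rule took only genes with both libraries on the same side of 0, and of those shown *Esrrg* is lowest at -1.41 and *Gm28653* highest at 1.35.

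Forelimb and hindlimb progenitors were compared by their levels alone, since 1 library per limb gives no replicate check and no p-value. Among 13492 genes with at least 20 UMIs over both sums, 431 differed by more than 2-fold, or 3.19%, with 255 (1.89%) higher in the forelimb and 176 (1.3%) higher in the hindlimb. The genes with the largest ratios toward the hindlimb were *Hoxc10*, *Hoxc11*, *Hoxc9*, *Hoxc8* and *Hoxc5*, all of the HoxC cluster, a row of homeobox genes on chromosome 15 that is known to mark positions along the body axis.

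The HoxC genes were present in hindlimb progenitors and nearly absent in forelimb progenitors. *Hoxc10* (chromosome 15, 102966796 to 102971893, plus strand) had 0 UMIs in 677 forelimb progenitors, which allows a level of up to 0.452 CPM at 3 UMIs, and 382 UMIs in the hindlimb, at 57.1 CPM (95% Poisson interval 51.5 to 63.1). It was seen in 44.3% of hindlimb progenitors. *Hoxc11* had 0 and 148 UMIs, *Hoxc9* 1 and 173, *Hoxc8* 1 and 128, *Hoxc6* 3 and 46, *Hoxc5* 2 and 100, and *Hoxc4* 9 and 68. All 7 genes were thus past the fold toward the hindlimb. No forelimb progenitor held more than 2 UMIs of any of them. Other forelimb cells stood at 0.088 CPM of *Hoxc10*, 0.162 of *Hoxc9* and 0.169 of *Hoxc11*. They stood at 1.15 CPM of *Hoxc8*, 1.37 of *Hoxc5* and 3.04 of *Hoxc4*. Intervals and limits of this kind cover counting error only.

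Some HoxC genes also stood higher in hindlimb progenitors than in the other cells of the same limb. *Hoxc10* stood at 22.2 CPM in other hindlimb cells and at 15.9 CPM in hindlimb Myog cells, and *Hoxc9* at 25.9 CPM in progenitors, 6.32 in other cells and 10.0 in Myog cells. In the test over both libraries *Hoxc9*, *Hoxc10* and *Hoxc11* were called higher against other limb cells (log2 fold changes 2.22 ± 0.23, 1.61 ± 0.15 and 1.39 ± 0.24) and *Hoxc4*, *Hoxc5*, *Hoxc6* and *Hoxc8* were not. The calls rest on the hindlimb library, since the forelimb progenitors held at most 1 UMI of each. All of these calls were lost without the library block, those of *Hoxc10* and *Hoxc11* also with DESeq2, and that of *Hoxc11* also without dividing cells. Against Myog cells *Hoxc4*, *Hoxc5*, *Hoxc8*, *Hoxc9*, *Hoxc10* and *Hoxc11* were called higher, again with few UMIs in the forelimb progenitors. At 2000 UMIs per cell *Hoxc10* was detected in 10.8% of hindlimb progenitors and 3.95% of other hindlimb cells, and in 1.45% of hindlimb *Pecam1* and *Cdh5* cells. Over all 21 listed limb identity and Hox genes, 3 were called higher than in other limb cells and 6 lower. The 6 were *Tbx5*, *Tbx4*, *Hoxd8*, *Hoxd10*, *Hoxd11* and *Hoxd13*. Of all tested genes 4.4% were called higher and 13.1% lower.

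The limb identity genes *Tbx5*, *Pitx1* and *Tbx4*, which are known mostly from limb mesenchyme, passed the fold between the limbs in progenitors, *Pitx1* not once the cells marked by scrublet were left out, and each stood lower in progenitors than in the other cells of the limb it is known from. *Tbx5*, a T-box gene of the forelimb, stood at 10.2 CPM in forelimb and 0.299 in hindlimb progenitors, with 68 and 2 UMIs, and at 57.7 and 3.22 CPM in other limb cells. *Pitx1*, a homeobox gene of the hindlimb, stood at 4.22 CPM in forelimb and 12.6 in hindlimb progenitors, a ratio of 2.98 toward the hindlimb (95% counting interval 1.92 to 4.75), while the other cells stood at 0.875 and 71.2 CPM. *Tbx4* stood at 2.86 and 8.07 CPM in progenitors and at 5.04 and 33.0 CPM in other cells. Without the cells marked by scrublet, *Pitx1* stood at 4.60 and 8.70 CPM, *Tbx5* at 7.67 and 0.335 CPM and *Hoxc10* at 0 and 58.0 CPM. *Hoxa9*, *Hoxa10*, *Hoxa11* and *Hoxa13* did not pass the fold in either direction, and *Hoxd11* passed it toward the hindlimb, at 6.02 and 16.7 CPM.

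**Figure D5:**
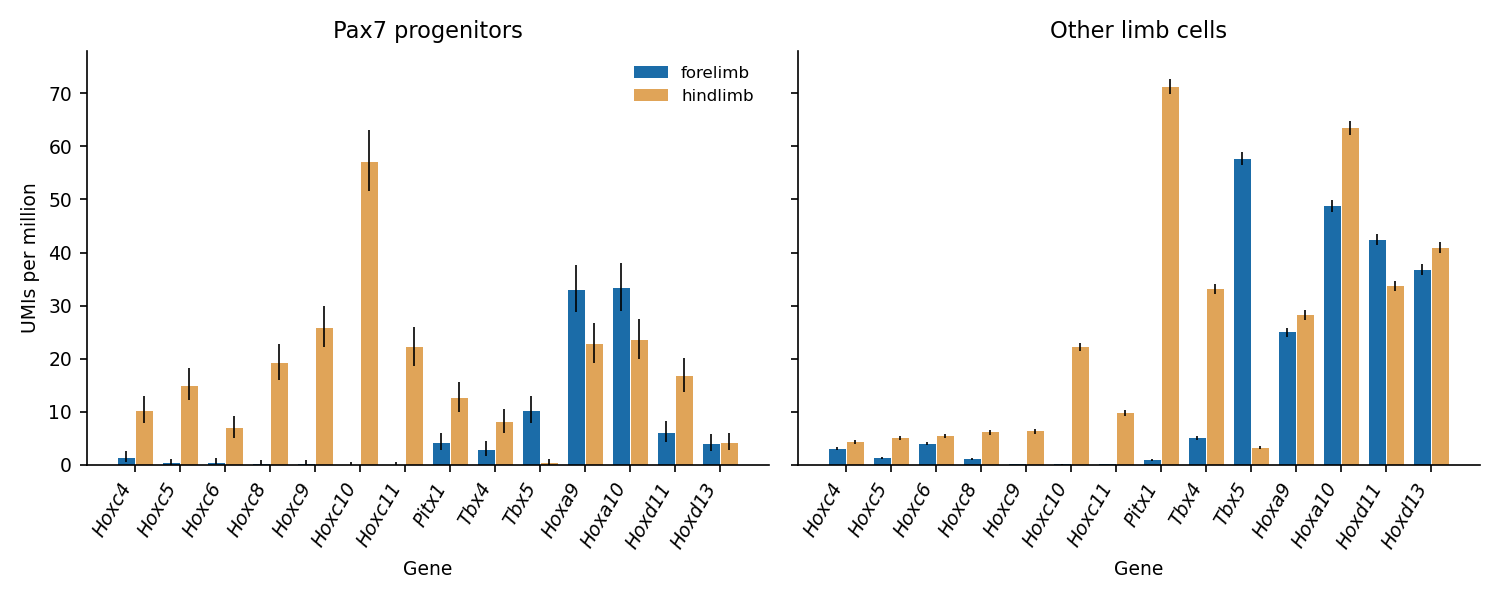
Levels of 14 limb identity genes in CPM (vertical axis, from 0) in forelimb (blue) and hindlimb (orange) cells, for Pax7 progenitors on the left and all other limb cells on the right, with 95% Poisson counting intervals. *Hoxc10* reaches 57.1 in hindlimb progenitors and 22.2 in other hindlimb cells, while *Pitx1* stands at 12.6 in hindlimb progenitors and 71.2 in other hindlimb cells.

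Toward the forelimb the largest ratios were those of *Tbx5*, *Ccl21a*, *Col10a1*, *Cxcl2* and *Cpa3*. For *Ccl21a*, *Col10a1*, *Cxcl2* and *Cpa3* 1 forelimb progenitor held many of the UMIs, and *Ccl21a* has near-identical copies in the genome that make its count uncertain. Of the 72 *Ccl21a* UMIs of forelimb progenitors 68 were in 1 cell, and of the 61 UMIs of *Col10a1*, a collagen of hypertrophic cartilage, 49 were in 1 cell. *Cpa3*, a protease of mast cells, had 253 UMIs in 56 forelimb progenitors, with up to 80 in 1 cell, and 47 UMIs in 45 hindlimb progenitors. Without the cells marked by scrublet *Col10a1* stood at 1.87 and 1.34 CPM and *Cpa3* at 19.6 and 6.52 CPM. Of 61 listed markers of other cell types with enough UMIs, 13 were past the fold toward the forelimb, among them *Col2a1*, *Acan*, *Krt14* and *Fcer1g*, and none toward the hindlimb. The chondrocyte list summed to 299 CPM in forelimb and 123 in hindlimb progenitors, and the immune list to 85.8 and 54.7 CPM. Without the cells marked by scrublet these sums were 254 and 92.5 CPM, and 34.6 and 37.8 CPM, and 404 genes passed the fold, 217 toward the forelimb and 187 toward the hindlimb. Only 240 of the 404 were among the 431 above. With at least 2 *Pax7* UMIs 442 genes passed the fold, 210 of them among the 431. The part of transcripts of other cell types in the other forelimb-high genes was not tested.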

How the data were processed

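Dissociated limb and penis tissue, the latter without the prepuce per the study's methods, was captured with the 10X Genomics 3' kit. Per the submitters' processing notes, Cell Ranger 7.0.0 and mm10 were used, and the values deposited by the authors are raw UMI counts of 32285 genes per barcode. Whether introns were counted is not given in the sources used here.

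Limb barcodes were kept with 100 to 9000 genes, at most 10% mitochondrial UMIs and a ratio of log10 genes to log10 UMIs of at least 0.8. The gene limits are the study's forelimb limits on reads per cell, read as genes. For the hindlimb the study's upper limit was 9500, which kept 20514 cells in place of 20505 and left the number of progenitors at 578. Penis barcodes needed 500 to 6000 genes and at most 5%, and served only the count of cells meeting the gene limits. Doublets were marked with scrublet and not removed. UMIs of each cell set were added up in each library, and these sums were tested in edgeR 4.0.16 (R 4.3.3, limma 3.58.1) with TMM, filterByExpr, the quasi-likelihood test and the library as a block, with p-values adjusted by Benjamini-Hochberg. Both sets of a comparison came from the same library, which is why the library pairs them. Standard errors were taken from the fold change and the square root of its F statistic. DESeq2 1.42.0 was an alternative, with other scalings (library totals among them, added after seeing the data), filters and cell limits. Forelimb and hindlimb progenitors were compared by ratio alone, with exact counting intervals at 95%.

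Python 3.11.15 with numpy 2.4.6, scipy 1.17.1, scanpy 1.11.5, pandas 2.3.3 and matplotlib 3.10.9 was used for cells and figures, and the tests were checked on simulated counts. Gene positions are from GENCODE M21 and promoters from RefSeq, both on GRCm38, the assembly of mm10.

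The members, the 24 gene lists (308 genes) and the comparisons were chosen with earlier results of these data known. Any list gene could be named. Beyond the lists, the rule named the 10 highest and 5 lowest called genes of each test with at least 50 UMIs in the higher set of each library and 1 direction in both, and the 5 largest ratios each way between the limbs with at least 50 UMIs in the higher sum. Some genes that the lists or the rule cover are not reported here.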

Additional observations from a re-analysis of the deposited data

Results flagged for a closer look

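Among 428 genes of the lists and of the naming rule, 4 lay on opposite sides of the other limb cells in the 2 limbs by more than 2-fold each way. In these genes the progenitors were higher in one limb and lower in the other, with at least 20 UMIs in one progenitor sum, and the difference between limbs was not tested because each limb is 1 library. *Pitx1* was above the other cells in forelimb progenitors, at a log2 ratio of 2.29 (4.22 against 0.875 CPM), and below them in hindlimb progenitors, at -2.50 (12.6 against 71.2 CPM). *Hoxc4* had log2 ratios of -1.09 in the forelimb and 1.23 in the hindlimb, *Hoxc5* of -1.86 and 1.57, and *Hoxc8* of -2.36 and 1.65. In the forelimb, *Hoxc5* rests on 2 and *Hoxc8* on 1 UMI in the progenitors.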

How the results depend on the processing

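The number of progenitors depends on the limits. With at least 2 *Pax7* UMIs, 731 cells (1.72% of kept limb cells) were left, and the share was 2.32% with at least 2 of *Myf5*, *Msc* and *Fgfr4*, 3.71% with *Myog* allowed and 3.23% among cells with at least 2000 UMIs. Against Myog cells DESeq2 called 933 genes, 927 of them among the 1530. Between progenitors with and without *Myod1* DESeq2 called 2 genes and the fit without the library block 0, in place of 36. Without that block the counts were 3216 against other limb cells and 1193 against Myog cells. In alternatives chosen after seeing the data, leaving out cells with a *Mki67* or *Top2a* UMI gave 2279 genes against other limb cells and 9 between the *Myod1* sets. Against Myog cells it gave more, 1876, of which 1129 were among the 1530. With library totals in place of TMM, also chosen then, 4280 genes were called against other limb cells (3275 of them among the 3704), 1624 against Myog cells and 20 between the *Myod1* sets. The cause of these changes was not tested. Leaving cells with muscle genes out of the other limb cells, also chosen after seeing the data, turned *Mymk* from a log2 fold change of -3.70 to 0.33 and *Mymx* from -3.99 to 0.16, since that removes the Myog cells. Of 161 called results for named genes, 27 lost their call with DESeq2, 26 without the block, 10 with at least 2 *Pax7* UMIs, 24 without dividing cells, 13 with library totals and 0 with the other size factors. With at least 2 *Pax7* UMIs and without dividing cells, some of the results could not be tested. Leaving out 1 library leaves no replicate, so only ratios could be given. *Hoxc10* had a log2 ratio to other limb cells of -0.29 in the forelimb alone and 1.36 in the hindlimb alone, and *Hoxc11* of -1.20 and 1.19, and *Hoxc9* of 0.45 and 2.04, the first a value set by the prior count, since the forelimb levels were 0.151 CPM in progenitors and 0.162 CPM in other cells. *Krtdap* had a log2 ratio to Myog cells of 0.14 in the forelimb alone and -5.02 in the hindlimb alone. The other named results kept their direction in each library taken alone, which the rule had required of the genes named beyond the lists. Calls lost in 1 or more alternatives that are not, or not all, given above were those of *Id1*, *Ccnd3*, *Tpm1*, *Myh11*, *Kcnj8*, *Meox1*, *Musk*, *Myf6* and *Osmr* against other limb cells and *Mcm5*, *Cspg4*, *Foxd3*, *Erbb3*, *Hbb-y* and *Krt10* against Myog cells. With 1 library per limb, differences between limbs have no replicate check.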

Other observations

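Of the insulin-like growth factor genes, the text above gives *Igfbp5* alone. Against other limb cells *Igf1*, *Igfbp4* and *Igfbp7* of 10 such genes were called lower in progenitors and none higher. Of all tested genes 13.1% were called lower and 4.4% higher. *Igf1*, which encodes a growth factor that promotes muscle growth, stood at 59.5 CPM in forelimb and 45.0 in hindlimb progenitors, and at 287 and 246 CPM in other limb cells (log2 fold change -2.10 ± 0.07, adjusted p = 2.45e-08, edgeR). It did not pass the test against Myog cells, at 65.1 and 38.2 CPM. *Igfbp5* was the 1 gene of the list called higher than in Myog cells. *Igfbp7*, which encodes a related secreted protein, was called lower in progenitors with *Myod1* than in those without, at 17.2 and 6.56 CPM against 32.2 and 15.7, a call that was lost with DESeq2, without the library block, without the count filter, with at least 2 *Pax7* UMIs, without dividing cells and without the cells marked by scrublet.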
